A study of Mus with 18 samples.

Results

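Autophagy is the route by which a cell encloses part of its own contents in a double membrane, the autophagosome, and delivers it to the lysosome for breakdown. A kinase complex built on Ulk1 starts the process, a lipid kinase complex that contains Becn1 marks the membrane, and the conjugation enzymes Atg7 and Atg5 help to attach ATG8-family proteins (the LC3 and GABARAP proteins) to it. Sqstm1 brings ubiquitinated cargo to these proteins, and Bnip3 and Bnip3l, which sit in the outer mitochondrial membrane, bind them to send mitochondria to the same fate, a process called mitophagy. In skeletal muscle, autophagy takes part in the turnover of mitochondria and proteins, and several of its genes are transcribed under FoxO factors during atrophy.

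The genes described here are Sqstm1, Map1lc3a, Map1lc3b, Gabarapl1, Bnip3, Bnip3l, Becn1, Ulk1, Atg5 and Atg7, 10 of the 21401 gene symbols in each table of expression values. They were taken by symbol. All 10 were found in both tables, and all 10 passed the filter on low values in both experiments. The values are FPKM, counts of read fragments scaled by transcript length and library size, so levels of different genes can be set side by side within a library. RNA was sequenced from 18 libraries, with 3 libraries in each of 3 groups in each of 2 experiments.

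In the first experiment, cultures of C2C12, a mouse myoblast line, received vehicle (control), LPS at 1 μg/mL (lipopolysaccharide, the bacterial cell wall component that Toll-like receptor 4 senses), or LPS with MIC-1 (moringa isothiocyanate-1) at 10 μM, the dose in the labels. In the second, male C57BL/6 mice received vehicle, LPS at 10 mg/kg by intraperitoneal injection, or the same LPS after 3 days of oral MIC-1 at 80 mg/kg, and the gastrocnemius muscle was taken 16 h after the injection. The labels give a treatment time of 24 h for the LPS-MIC-1 cultures and a vehicle of 10% DMSO for the LPS-MIC-1 mice. The study names oral 10% DMSO for the control mice. The ages of the mice are not given in the sources used here. No group received MIC-1 alone, so LPS-MIC-1 can be compared with LPS and with control only. The sources do not say whether the 3 cell libraries of a group came from separate cultures, so their p-values measure only the spread between these libraries. In whole tissue, fewer cells of a type and less RNA per cell cannot be told apart.

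The label of the cell experiment did not hold for 2 of its 3 groups. Summed over 17 macrophage marker genes, FPKM was 10344 to 10400 in the libraries labelled control, 7271 to 7451 in those labelled LPS and 80.1 to 279 in those labelled LPS-MIC-1, where Aif1, C1qa and C1qc were listed at 0 in every library. Over 10 myogenic markers the order was the opposite, with 0.187 to 0.477 in control, 0.384 to 2.77 with LPS and 933 to 1187 in LPS-MIC-1. Myf5, Myog, Pax7 and Tnnt2 were listed at 0 throughout the control libraries, and Myf5 and Pax7 throughout the LPS libraries. Lyz2, the lysozyme of macrophages, averaged 4694 FPKM in control, 1838 with LPS and 17.1 in LPS-MIC-1, whereas Des, the muscle intermediate filament desmin, averaged 0.126, 0.498 and 398. Cd14, another of the macrophage markers, was higher with LPS than in control, with means of 705, 2040 and 99.3 FPKM in the same order. Over 8 fibroblast markers the sums were 0.202 to 0.416, 0.973 to 2.09 and 464 to 562, over 15 muscle fibre genes 29.8 to 42.2, 11.1 to 15.1 and 749 to 1059, and over 6 adipocyte markers 1.72 to 2.29, 63.5 to 75.0 and 1.26 to 4.31. The adipocyte sum with LPS was that of Fabp4 alone, since the 5 other markers, Adipoq among them, were listed at 0 in every LPS library. Every comparison of LPS-MIC-1 with another cell group is therefore also a comparison of libraries that differ in macrophage, myogenic and fibroblast markers, and in these data the treatment and this difference cannot be told apart. LPS-MIC-1 replicate 1 had the highest macrophage sum of its group, and counts without it are given beside the main ones.

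The muscle libraries all carried muscle fibre markers, which mark the tissue and not the treatment. The summed FPKM of 15 fibre genes was 232231 to 237062 in control, 219907 to 223130 with LPS and 172677 to 185619 in LPS-MIC-1. Macrophage markers summed to 30.5 to 36.5, 47.4 to 50.3 and 50.8 to 212 in the same order, LPS-MIC-1 replicate 3 holding the 212. Neutrophil markers summed to 1.73 to 2.74, 1.76 to 2.02 and 14.3 to 19.9, and endothelial markers to 86.7 to 92.0, 55.3 to 57.5 and 83.7 to 93.0. Fibroblast markers summed to 131 to 135, 133 to 137 and 143 to 162, and adipocyte markers to 287 to 290, 219 to 240 and 314 to 342. Of the 6 adipocyte markers only Fabp4 had a mean over 1 FPKM in any group (287, 227 and 325), and Adipoq averaged 0.400, 0.451 and 0.689. Genes within a list did not all follow its sum. The endothelial Cdh5 averaged 31.2, 18.9 and 22.0 FPKM and Cldn5 10.2, 5.64 and 31.5 in the same order. The fibroblast Dcn averaged 69.4, 74.5 and 120 and Col3a1 18.4, 16.9 and 7.23. Myogenic markers summed to 1606 to 1714, 1651 to 1662 and 1743 to 1873. Among these, Des averaged 1607, 1590 and 1788 and Myod1 21.9, 33.9 and 4.72. The part of these shifts in the muscle results was not tested.

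In the cell experiment, the libraries labelled LPS had more RNA of 7 of these 10 genes than control, led by Sqstm1. By the test given below, 31.1% of all genes were higher there and 32.1% lower. The libraries labelled LPS-MIC-1 had lower Sqstm1, Bnip3, Bnip3l, Gabarapl1, Ulk1 and Atg7 and higher Map1lc3a and Map1lc3b than LPS. Of all genes, 43.2% were lower and 41.4% higher in that comparison. In muscle the LPS group differed little from control, whereas in the LPS-MIC-1 group Gabarapl1 rose 14.2-fold over LPS, Ulk1 3.79-fold, Map1lc3b 2.54-fold, Bnip3 2.46-fold, Bnip3l 1.95-fold and Sqstm1 1.56-fold (ratios of mean FPKM, n = 3). Becn1 passed the test in no comparison of either experiment. In what follows a gene rose or fell when its adjusted p was under 0.05 (limma on log2 of FPKM + 0.1, Benjamini-Hochberg over all genes tested), and it was called when it also passed the thresholds of the study, an absolute log2 fold change over 1 with an adjusted p under 0.001 in cells or 0.05 in muscle.

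**Figure D1:**
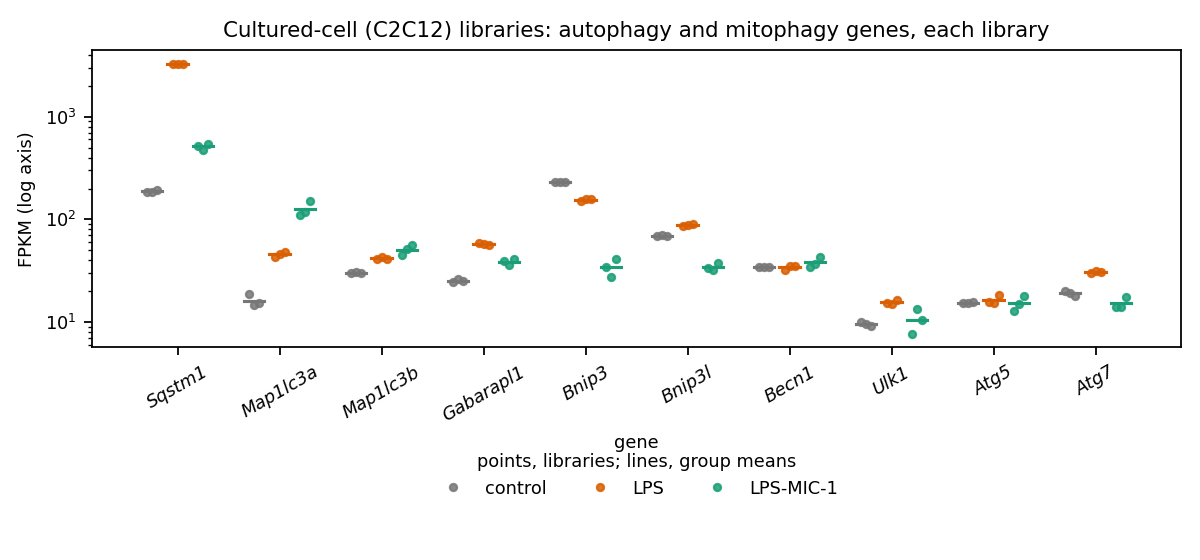
FPKM (log axis) of the 10 genes in each library of the cell experiment, points for libraries and lines for means of 3, in the groups labelled control, LPS and LPS-MIC-1. Sqstm1 stands between 3223 and 3278 in the LPS libraries, above every other value plotted, while the points of Becn1 and Atg5 overlap across the groups.

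Of the cargo and mitochondrial receptors, Sqstm1 was the most abundant in the cell libraries labelled LPS. Its FPKM was 186, 183 and 195 in control (188 ± 6.01, SD), 3278, 3223 and 3278 in LPS (3260 ± 31.6) and 521, 475 and 545 in LPS-MIC-1 (514 ± 35.8). No library of one group reached the range of another, and LPS was highest and control lowest. Sqstm1 rose 17.4-fold with LPS, a log2 fold change of 4.12 (SE 0.0605, adjusted p = 6.25e-09). It fell by 2.67 on the log2 scale from LPS to LPS-MIC-1 (SE 0.0605, adjusted p = 6.74e-09), and it remained above control in LPS-MIC-1, by 1.45 (adjusted p = 1.19e-07).

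Bnip3 had its highest level in the control libraries. FPKM was 234, 233 and 232 in control, 151, 158 and 159 with LPS and 34.3, 27.3 and 41.5 in LPS-MIC-1, so that the 3 groups formed 3 separate steps downward. Bnip3 fell by 0.58 on the log2 scale with LPS (SE 0.129, adjusted p = 0.00442) and by 2.20 from LPS to LPS-MIC-1 (SE 0.129, adjusted p = 7.70e-07). Bnip3l, its close relative, took another course. Its FPKM was 69.0, 70.5 and 69.1 in control, 86.3, 89.1 and 89.6 with LPS and 33.7, 32.0 and 38.1 in LPS-MIC-1. It rose with LPS by 0.34 (SE 0.0624, adjusted p = 0.0015) and fell by 1.35 from LPS to LPS-MIC-1 (SE 0.0624, adjusted p = 1.88e-07), to below the control level.

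The 3 ATG8-family genes of the set did not move alike in cells. Map1lc3a encodes LC3A, and its FPKM was 18.7, 14.6 and 15.2 in control, 43.3, 45.8 and 48.0 with LPS and 112, 117 and 150 in LPS-MIC-1. It rose at each step without overlap, by 1.50 with LPS (SE 0.130, adjusted p = 2.22e-05) and by a further 1.45 in LPS-MIC-1 (SE 0.130, adjusted p = 1.13e-05). Map1lc3b encodes LC3B, the form most used as an autophagosome marker, and had the same order over a narrower range, 30.2, 30.6 and 30.1 in control, 41.3, 43.2 and 40.8 with LPS and 45.5, 51.3 and 55.9 in LPS-MIC-1. The increases were 0.46 with LPS (adjusted p = 0.000632) and 0.28 from LPS to LPS-MIC-1 (adjusted p = 0.00626). Gabarapl1, of the GABARAP branch, was highest in LPS, with 24.7, 26.6 and 24.9 in control, 58.8, 57.7 and 56.0 with LPS and 39.5, 36.0 and 41.3 in LPS-MIC-1. It rose by 1.18 with LPS (SE 0.0599, adjusted p = 1.23e-06) and fell by 0.56 from LPS to LPS-MIC-1 (SE 0.0599, adjusted p = 3.30e-05), ending above control.

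The kinase Ulk1 was the least abundant of the 10 in the control cells. Its FPKM was 10.0, 9.52 and 9.19 in control, 15.4, 14.9 and 16.5 with LPS and 7.70, 13.5 and 10.5 in LPS-MIC-1. The LPS libraries lay above both other groups, which overlapped each other. Ulk1 rose by 0.70 with LPS (SE 0.178, adjusted p = 0.00891) and fell by 0.59 from LPS to LPS-MIC-1 (SE 0.178, adjusted p = 0.0139). The second difference missed the threshold after quantile normalization, with a fall of 0.40 and an adjusted p of 0.0662.

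Becn1, the Beclin 1 subunit of the class III lipid kinase complex, had FPKM of 34.8, 34.6 and 34.8 in control, 32.6, 35.4 and 35.1 with LPS and 34.3, 37.2 and 43.5 in LPS-MIC-1, with all 3 groups overlapping. Its log2 difference was -0.02 with LPS (95% interval -0.21 to 0.18, adjusted p = 0.893) and 0.15 from LPS to LPS-MIC-1 (95% interval -0.04 to 0.34, adjusted p = 0.127). Without LPS-MIC-1 replicate 1 the latter was 0.23, with an adjusted p of 0.0217. Atg5, part of the conjugate that carries ATG8 proteins to the membrane, had 15.3, 15.4 and 15.8 in control, 15.7, 15.4 and 18.4 with LPS and 12.7, 15.0 and 17.9 in LPS-MIC-1, again with overlap throughout. Its differences were 0.09 with LPS (adjusted p = 0.563) and -0.13 from LPS to LPS-MIC-1 (95% interval -0.41 to 0.16, adjusted p = 0.363), the latter reaching -0.25 with an adjusted p of 0.048 without LPS-MIC-1 replicate 3. Atg7, the E1-like enzyme of the conjugation reactions, rose and then fell without overlap, from 20.1, 19.4 and 18.1 in control to 30.2, 31.6 and 30.9 with LPS and 13.9, 14.1 and 17.6 in LPS-MIC-1. The log2 differences were 0.69 (SE 0.0938, adjusted p = 0.000303) and -1.02 (SE 0.0938, adjusted p = 1.29e-05).

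Taken as a set in cells, 7 of the 10 genes rose with LPS, 1 fell and 2 did not pass, where 31.1% of all 10877 genes tested rose and 32.1% fell. From LPS to LPS-MIC-1, 2 rose and 6 fell, against 41.4% and 43.2% of all genes. With the thresholds of the study, 3 of 10 were called with LPS (Sqstm1, Map1lc3a and Gabarapl1, all higher), against 20.9% of all genes, and 5 from LPS to LPS-MIC-1 (Map1lc3a higher; Sqstm1, Bnip3, Bnip3l and Atg7 lower), against 49.9%. Without LPS-MIC-1 replicate 1 the latter count was 4, and 9 genes changed, Becn1 being added. The median log2 fold change of the 10 was 0.57 with LPS and -0.58 from LPS to LPS-MIC-1, beside 0.00 and -0.05 over all genes tested. Libraries of the 2 groups did not overlap for 8 of the 10 genes in both comparisons, where this held for 79.4% and 85.5% of all genes. Both comparisons share the LPS libraries. Against control, LPS-MIC-1 had 4 genes higher (Map1lc3a by 2.95, Sqstm1, Map1lc3b and Gabarapl1) and 3 lower (Bnip3 by 2.78, Bnip3l and Atg7), where 39.5% and 41.8% of all genes rose and fell. Of these 7, whose groups did not overlap (83% of all genes), 4 were called, against 43.3%.

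**Figure D2:**
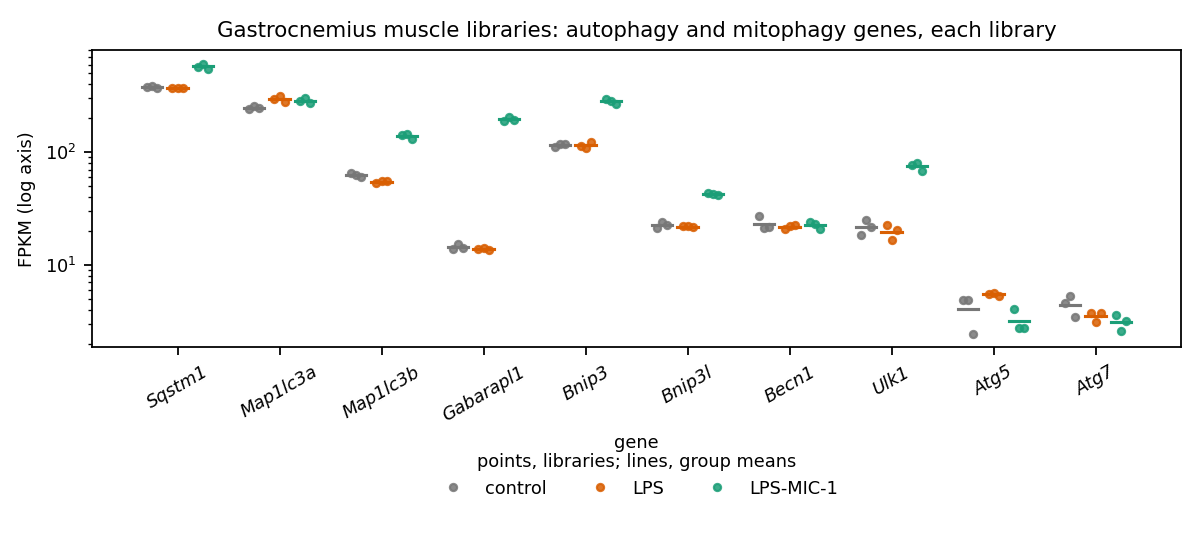
FPKM (log axis) of the same 10 genes in each gastrocnemius library, points for libraries and lines for means of 3. The LPS-MIC-1 points of Gabarapl1 lie at 189 to 204, apart from control and LPS at 13.5 to 15.4, and those of Ulk1, Bnip3, Bnip3l, Map1lc3b and Sqstm1 also stand above both other groups.

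In muscle the largest difference among the 10 genes was that of Gabarapl1. Its FPKM was 13.9, 15.4 and 14.1 in control (14.5 ± 0.844, SD), 13.7, 14.1 and 13.5 in LPS (13.7 ± 0.291) and 189, 204 and 195 in LPS-MIC-1 (196 ± 7.68). Control and LPS overlapped, and every LPS-MIC-1 library stood above them. The log2 fold change was -0.07 with LPS (95% interval -0.19 to 0.04, adjusted p = 0.382) and 3.82 from LPS to LPS-MIC-1 (SE 0.0505, adjusted p = 6.54e-10). It was 3.82 also without LPS-MIC-1 replicate 3, the library with the high macrophage sum. Gabarapl1 shares much of its sequence with Gabarap, and a pseudoaligner divides reads that fit both, so the level of each is less certain than that of a gene without such a relative. The same holds for Map1lc3a and Map1lc3b. How many reads fit both genes of such a pair was not examined.

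Map1lc3a and Map1lc3b differed in muscle in which step moved them. Map1lc3a, at 242, 255 and 246 FPKM in control, 296, 314 and 280 with LPS and 284, 305 and 271 in LPS-MIC-1, rose with LPS by 0.26 (SE 0.0541, adjusted p = 0.0153). LPS and LPS-MIC-1 overlapped, with a difference of -0.05 (95% interval -0.17 to 0.08, adjusted p = 0.484). Map1lc3b had 66.0, 62.5 and 59.9 in control, 53.5, 55.5 and 55.0 with LPS and 142, 144 and 131 in LPS-MIC-1. It fell by 0.20 with LPS (SE 0.0490, adjusted p = 0.0291) and rose by 1.34 from LPS to LPS-MIC-1 (SE 0.0490, adjusted p = 1.27e-07). The fall with LPS missed the threshold when control replicate 1 or 2, or any LPS library, was left out, with adjusted p from 0.0644 to 0.0949, and at 0.0621 without the variance trend. The rise of Map1lc3a with LPS had an adjusted p of 0.0518 without control replicate 1.

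Both mitochondrial receptors rose in the muscle of LPS-MIC-1-treated mice. Bnip3 had FPKM of 112, 119 and 119 in control, 114, 110 and 122 with LPS and 295, 287 and 269 in LPS-MIC-1. The first 2 groups overlapped, and the third lay above them. The log2 fold change from LPS was 1.30 (SE 0.0515, adjusted p = 2.07e-07), and that of LPS against control was -0.02 (adjusted p = 0.866). Bnip3l had 21.2, 24.1 and 22.8 in control, 22.0, 22.1 and 21.5 with LPS and 43.9, 42.3 and 42.0 in LPS-MIC-1, the same arrangement at a lower level, with a log2 fold change from LPS of 0.96 (SE 0.0499, adjusted p = 1.02e-06). This lay just under the fold threshold for a call. Sqstm1 was the most abundant of the 10 in every muscle group, at 382, 389 and 373 in control, 372, 368 and 369 with LPS and 573, 611 and 549 in LPS-MIC-1. The control libraries lay above the LPS libraries by a difference that did not pass (-0.04, adjusted p = 0.49), and the rise from LPS to LPS-MIC-1 was 0.64 (SE 0.0386, adjusted p = 2.46e-06).

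Ulk1 followed the receptors in muscle. Its FPKM was 18.5, 25.2 and 21.5 in control, 22.5, 16.5 and 20.4 with LPS and 77.3, 80.4 and 67.6 in LPS-MIC-1. Control and LPS were interleaved, with a log2 difference of -0.13 (95% interval -0.46 to 0.19, adjusted p = 0.578). Ulk1 then rose by 1.93 in LPS-MIC-1 (SE 0.143, adjusted p = 8.76e-06).

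The remaining genes were nearly level or fell in muscle. Becn1 had 27.0, 21.1 and 21.8 in control, 21.0, 22.0 and 22.8 with LPS and 24.0, 22.9 and 21.0 in LPS-MIC-1, all overlapping, with log2 differences of -0.08 with LPS (adjusted p = 0.64) and 0.05 from LPS to LPS-MIC-1 (95% interval -0.17 to 0.27, adjusted p = 0.703). Atg5 and Atg7 were the least abundant of the 10 in muscle. Atg5 had 4.86, 4.90 and 2.44 in control, 5.54, 5.69 and 5.26 with LPS and 4.09, 2.75 and 2.78 in LPS-MIC-1. It fell by 0.78 from LPS to LPS-MIC-1 (SE 0.267, adjusted p = 0.0349), which missed the threshold when any LPS library or LPS-MIC-1 replicate 2 or 3 was left out (differences of -0.69 to -0.81, adjusted p from 0.0673 to 0.102). Atg7 had 4.56, 5.29 and 3.42 in control, 3.78, 3.11 and 3.71 with LPS and 3.60, 2.58 and 3.17 in LPS-MIC-1, overlapping between neighbouring groups. Its difference from LPS to LPS-MIC-1 was -0.18 (adjusted p = 0.423), and that of LPS-MIC-1 against control was -0.48 (SE 0.180, adjusted p = 0.0473). The latter missed the threshold without 7 of the 9 libraries in turn (adjusted p up to 0.15), in a fit of the 6 libraries compared (0.0768), without a filter on level (0.0663) and without a variance trend (0.0539).

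Taken as a set in muscle, 1 gene rose with LPS (Map1lc3a), 1 fell (Map1lc3b) and 8 did not pass, where 8.25% of all 9475 genes tested rose and 7.48% fell. None of the 10 was called by limma, against 1.25% of all genes, the farthest being Atg5 at 0.49. At an unadjusted p under 0.05, 2 of the 10 differed, Map1lc3a and Map1lc3b. From LPS to LPS-MIC-1, 6 rose, 1 fell (Atg5) and 3 did not pass, where 28.3% of all genes rose and 28.2% fell. Of the 6 that rose, 4 were called (Gabarapl1, Ulk1, Map1lc3b and Bnip3), against 15.1% of all genes called in either direction. Without LPS-MIC-1 replicate 3 the same 4 were called, 6 rose and none fell. After quantile normalization 4 of the 10 were called higher, while over all genes those that rose and fell went from 2686 and 2670 to 2152 and 3468. The groups did not overlap for 4 of the 10 genes with LPS and for 7 from LPS to LPS-MIC-1, where this held for 36.5% and 64.2% of all genes. The median log2 fold change of the 10 was -0.06 with LPS and 0.80 from LPS to LPS-MIC-1, beside 0.01 and -0.01 over all genes. Against control, LPS-MIC-1 had 7 genes higher, Gabarapl1 by 3.75, Ulk1 by 1.79, Bnip3 by 1.28, Map1lc3b by 1.14, Bnip3l by 0.91, Sqstm1 by 0.60 and Map1lc3a by 0.21 on the log2 scale, and Atg7 lower at the adjusted p of 0.0473 given above, where 30% and 28.5% of all genes rose and fell. The groups did not overlap for 7 of the 10 (64.6% of all genes), and 4 were called, against 15.5%. Over all genes quantile normalization moved this split from 2841 and 2703 to 2278 and 3448.

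**Figure D3:**
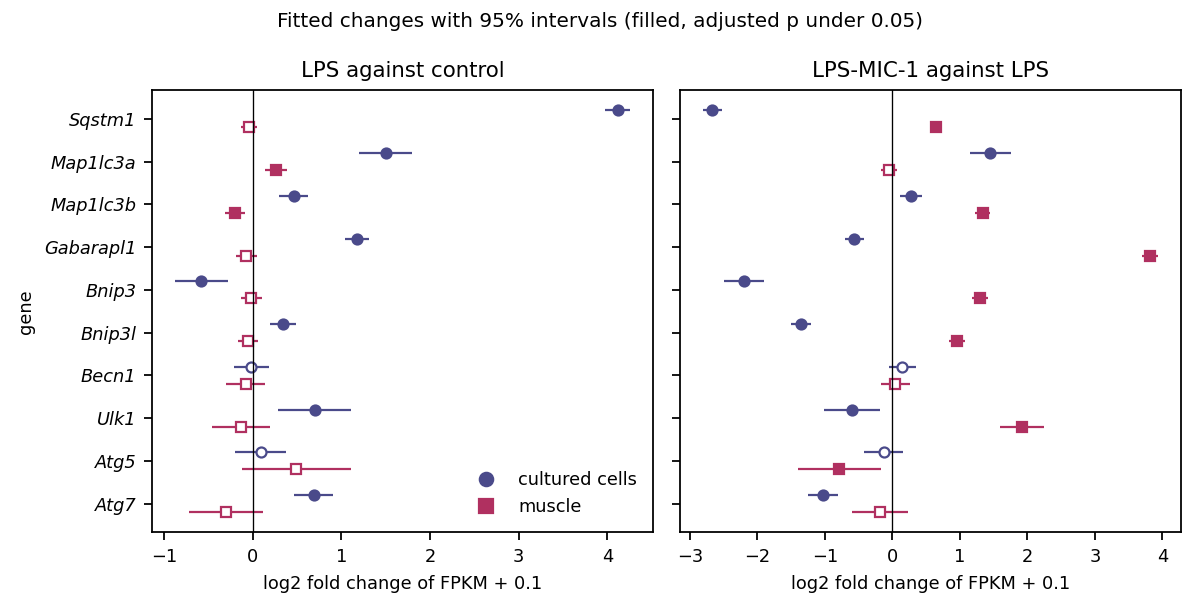
Log2 fold changes of FPKM + 0.1 with 95% intervals for LPS against control (left) and LPS-MIC-1 against LPS (right), circles for cultured cells and squares for muscle, filled where the adjusted p was under 0.05. In the right panel Sqstm1, Gabarapl1, Bnip3, Bnip3l and Ulk1 lie below 0 in cells and above 0 in muscle.

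The 2 experiments were normalized in separate tables, so only the direction of a difference within each is set side by side. From LPS to LPS-MIC-1, Sqstm1 was -2.67 in cells and 0.64 in muscle, Gabarapl1 -0.56 and 3.82, Bnip3 -2.20 and 1.30, Bnip3l -1.35 and 0.96, and Ulk1 -0.59 and 1.93 (log2 fold changes). Map1lc3b was above LPS in both experiments, by 0.28 and 1.34. For each of these 6 genes the LPS and LPS-MIC-1 libraries did not overlap, in either experiment. Over all genes this held for 85.5% in cells and 64.2% in muscle. The difference between the experiments was not tested.

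Within the ATG8 family the genes can be compared as shares of their summed FPKM, since the unit is per length. The family has 5 genes, the 3 above with Gabarap and Gabarapl2. In the control cells Gabarap held 70.8% (SD 1.27, n = 3) of a summed 420 FPKM, and its share was 71.3% with LPS and 70.8% in LPS-MIC-1 while the sum was 741 and 1020. Gabarap itself rose by 0.83 with LPS (adjusted p = 4.99e-05) and by 0.44 from LPS to LPS-MIC-1 (adjusted p = 0.00116). Gabarapl2 rose by 0.41 and 0.28 (adjusted p = 0.00704 and 0.028), the second step being 0.03 after quantile normalization (adjusted p = 0.612). Map1lc3a held 3.86% in control, 6.17% with LPS and 12.3% in LPS-MIC-1, Map1lc3b 7.22%, 5.64% and 5.0%, and Gabarapl1 6.05%, 7.76% and 3.84%.

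Muscle had another composition. Map1lc3a held the largest share, 42.8% in control, 48.8% with LPS and 33.0% in LPS-MIC-1, and Gabarap held 30.6%, 27.5% and 19.2%. Gabarapl1 was the smallest component in control and LPS, at 2.50% and 2.27%, and reached 22.6% in LPS-MIC-1, a difference of 20.3 percentage points from LPS. Map1lc3b moved from 9.03% in LPS to 16.0%. The summed FPKM was 579, 607 and 868. With 3 libraries against 3 the exact 2-sided permutation test cannot give a p below 0.1, and none of the 30 share comparisons had an adjusted p under 0.111.

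**Figure D4:**
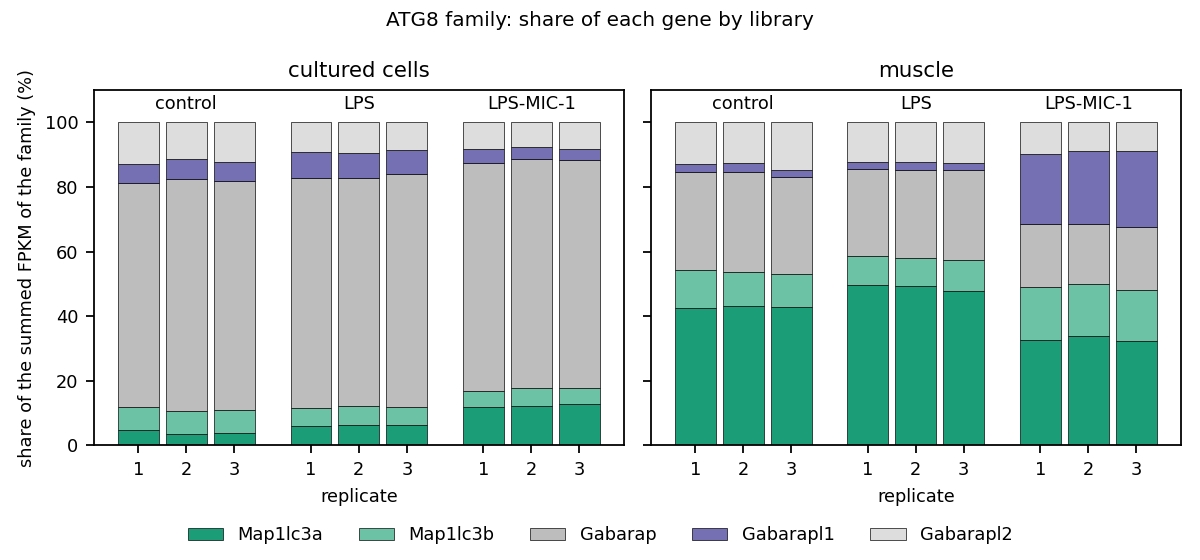
Share (%) of the summed FPKM of the ATG8 family held by each of its 5 genes, 1 bar per library, for cultured cells (left) and muscle (right). Gabarap fills about the same part of every cell library, and Gabarapl1 widens from 2.27% in the LPS muscle libraries to 22.6% in the LPS-MIC-1 libraries.

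The other genes of the pathway were taken from 10 lists, from initiation to the lysosome membrane, which without the 10 genes above hold 93 genes, 90 of them found. The counts of each list are to be read against the shares of all tested genes that rose and fell. These were 31.1% and 32.1% with LPS and 41.4% and 43.2% from LPS to LPS-MIC-1 in cells, and 8.25% and 7.48%, then 28.3% and 28.2%, in muscle. In cells 85 genes of the lists were tested. With LPS, 44 rose and 17 fell (median log2 fold change 0.37, beside 0.00 over all genes), and from LPS to LPS-MIC-1, 16 rose and 59 fell (median -0.89, beside -0.05). In muscle 84 were tested, of which 11 rose and 3 fell with LPS (median 0.05, beside 0.01), and 35 rose and 11 fell from LPS to LPS-MIC-1 (median 0.22, beside -0.01). Leaving out 1 LPS muscle library took the count of 14 that changed with LPS to 9, 7 or 8 (replicate 1, 2 or 3).

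In the cells 3 of the 5 genes of the initiation list, Ulk1, Atg13 and Rb1cc1, rose with LPS and then fell. Atg13, the regulatory subunit, had a mean FPKM of 42.4 in control, 81.0 with LPS and 9.92 in LPS-MIC-1, a rise of 0.93 and then a fall of 3.06 on the log2 scale (adjusted p = 0.00249 and 9.48e-07). Rb1cc1, the scaffold FIP200, rose by 1.39 and fell by 1.50. Ulk2 had a difference of -0.05 with LPS (adjusted p = 0.688) and then fell by 1.28. Atg101, listed under its older symbol 9430023L20Rik, rose at both steps, by 0.30 and 0.85 (adjusted p = 0.00989 and 1.34e-05). In muscle, Rb1cc1 rose by 0.37 from LPS to LPS-MIC-1 (adjusted p = 0.00155), and Atg101 fell by 0.60 (adjusted p = 0.00011), while Ulk1 rose by 1.93.

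In the class III PI3-kinase list, to which Becn1 belongs, 5 of 9 tested genes rose and 2 fell with LPS in cells, and 7 fell from LPS to LPS-MIC-1. The catalytic subunit Pik3c3 was at 17.3 FPKM in control, 8.03 with LPS and 6.58 in LPS-MIC-1, a fall of 1.10 with LPS (adjusted p = 8.53e-06). Atg14, which directs the complex to autophagosomes, rose by 0.75 and then fell by 1.66, and Ambra1, a scaffold of the complex, fell by 1.69 from LPS to LPS-MIC-1. In muscle none of 8 changed with LPS. In LPS-MIC-1 against LPS, 4 rose and 1 fell. Nrbf2, a subunit that binds Atg14, went from 13.3 to 40.4 FPKM, by 1.59 (adjusted p = 3.51e-08), and the inhibitor Rubcn, listed as 1700021K19Rik, fell by 0.96 (adjusted p = 0.000114).

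In the conjugation list, with Atg5 and Atg7, 2 of 11 genes rose and 4 fell from LPS to LPS-MIC-1 in muscle, beside 28.3% and 28.2% of all genes. Atg4c, a protease that processes ATG8 proteins, went from a mean of 2.46 to 0.888 FPKM, and Atg16l2 from 2.05 to 0.838 FPKM. Both are counted among the 4 that fell, as is Atg5, whose fall missed the threshold when single libraries were left out. Atg4c and Atg16l2 passed the filter on level through the control and LPS groups, so their tests are not given and the count of 4 rests partly on that filter. In cells Atg12, the ubiquitin-like partner of Atg5, had means of 12.3, 44.8 and 7.40 FPKM in control, LPS and LPS-MIC-1, a rise of 1.85 and a fall of 2.59 (adjusted p = 9.98e-07 and 4.32e-08). Atg4c also rose and fell there, by 0.83 and 1.81.

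Among genes of membrane supply and lipid transfer, 7 of 9 rose with LPS in cells and 7 fell from LPS to LPS-MIC-1. Atg2a, a lipid transfer protein, rose by 1.18 with LPS, Atg9b fell by 1.51, and Wipi1, which binds the lipid product of the PI3-kinase, rose by 1.95 from LPS to LPS-MIC-1, from 6.96 to 27.2 FPKM. Wdr45 was at 1.09, 2.07 and 2.73 FPKM with LPS and at 0.64 in LPS-MIC-1 replicate 2, and was listed at 0 in the other two. In muscle Wipi1 rose by 0.31 with LPS (adjusted p = 0.00557), and Atg2a rose by 0.82 from LPS to LPS-MIC-1 (adjusted p = 6.80e-06). Atg9a had a difference of 0.68 (adjusted p = 0.0417), but its LPS-MIC-1 libraries, at 28.1, 44.6 and 20.4 FPKM, overlapped those of LPS, and without LPS-MIC-1 replicate 2 it was 0.38 (adjusted p = 0.0661).

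In cells 7 of 8 tested genes of the cargo receptor list fell between LPS and LPS-MIC-1, Sqstm1 counted, while Calcoco1 had a difference of 0.10 (adjusted p = 0.289). Among those that fell were Retreg1 (listed as Fam134b, the receptor for endoplasmic reticulum) by 3.81 and Tollip by 2.33. In muscle 6 of 9 rose and 1 fell. Tollip rose by 1.07 (adjusted p = 0.00205), and Retreg1 was at 0.865 FPKM in LPS replicate 1 and listed at 0 in the other two, with 12.2, 5.27 and 3.25 in LPS-MIC-1. It passed the filter on level through the LPS-MIC-1 group, so its test is not given.

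The mitophagy list holds Bnip3 and Bnip3l. In cells Phb2, an inner membrane receptor, fell by 1.06 with LPS and rose by 1.23 from LPS to LPS-MIC-1, with means of 381, 183 and 432 FPKM, and the phosphatase Pgam5 fell by 0.87 with LPS. Tbk1, a kinase of autophagy receptors, fell by 2.11 from LPS to LPS-MIC-1. In muscle 5 of 12 rose and 2 fell from LPS to LPS-MIC-1. Tbk1 rose there by 1.20 (adjusted p = 3.60e-06). With LPS, Tbk1 rose by 0.35 and Bcl2l13 by 0.23 (adjusted p = 0.0171 and 0.0485), and Tbk1 missed the threshold without LPS replicate 2 or 3 or control replicate 2 (0.0552 to 0.0591), Bcl2l13 without any 1 control or LPS library (0.0698 to 0.145).

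Of the genes of fusion with the lysosome, 9 of 13 fell from LPS to LPS-MIC-1 in cells and 6 of 13 rose in muscle, and of those of the lysosome membrane 7 of 9 fell in cells. In muscle 3 of 9 rose, near the 28.3% of all genes. In cells Vps11, of the HOPS tether, rose by 0.90 with LPS, and Epg5, listed as 5430411K18Rik, by 1.24. Vps39, of the same tether, fell between LPS and LPS-MIC-1 from 32.4 to 0.327 FPKM, with 2 libraries listed at 0, and Plekhm1 fell by 2.54. Atp6v1a, a subunit of the proton pump, rose by 0.98 and fell by 2.65, whereas the tetraspanin Cd63 rose at both steps, by 1.29 and 2.53. In muscle Rab7 rose by 0.55 with LPS (adjusted p = 0.00282), Atp6v1b2 by 0.44 and Scarb2 by 0.28. The SNARE gene Snap29 was higher in LPS-MIC-1 than in LPS by 0.75 (adjusted p = 1.67e-05), Plekhm1 by 0.56, Lamp2 by 0.70 and Atp6v1h by 2.30 (adjusted p = 7.54e-05).

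Among the upstream regulators, the largest differences between LPS-MIC-1 and LPS in muscle were those of Ddit4 and Sesn1, which encode stress-induced inhibitors of mTORC1 signalling. Ddit4 was at 3.64, 4.39 and 4.88 FPKM in control, 2.48, 2.64 and 2.41 with LPS and 231, 254 and 234 in LPS-MIC-1, which was above LPS by 6.52 on the log2 scale (SE 0.10, adjusted p = 1.22e-09). Sesn1 was at 8.04, 8.02 and 7.33, then 4.53, 3.64 and 3.76, then 55.5, 53.4 and 51.4, a rise of 3.72 from LPS (SE 0.0856, adjusted p = 8.66e-09). In cells Ddit4 rose by 3.72 with LPS and fell by 1.49 from LPS to LPS-MIC-1 (adjusted p = 4.39e-05). At the second step the transcription factor Foxo3 fell by 4.22, from 33.8 to 1.78 FPKM, and Mitf fell by 3.32, from 19.3 to 1.85 FPKM. Deptor, a component of mTOR complexes, fell by 2.04 with LPS and then rose by 2.35. In muscle Prkaa2, the alpha 2 subunit of AMPK, was at 0.869, 0.856 and 0.489 FPKM in control and at 1.35, 3.30 and 2.77 with LPS. Rptor was at 4.15, 2.91 and 0.964 FPKM with LPS and at 0.962 in control replicate 1, and was listed at 0 in control replicates 2 and 3. Both genes passed the filter on level through the LPS and LPS-MIC-1 groups, so their tests are not given.

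**Figure D5:**
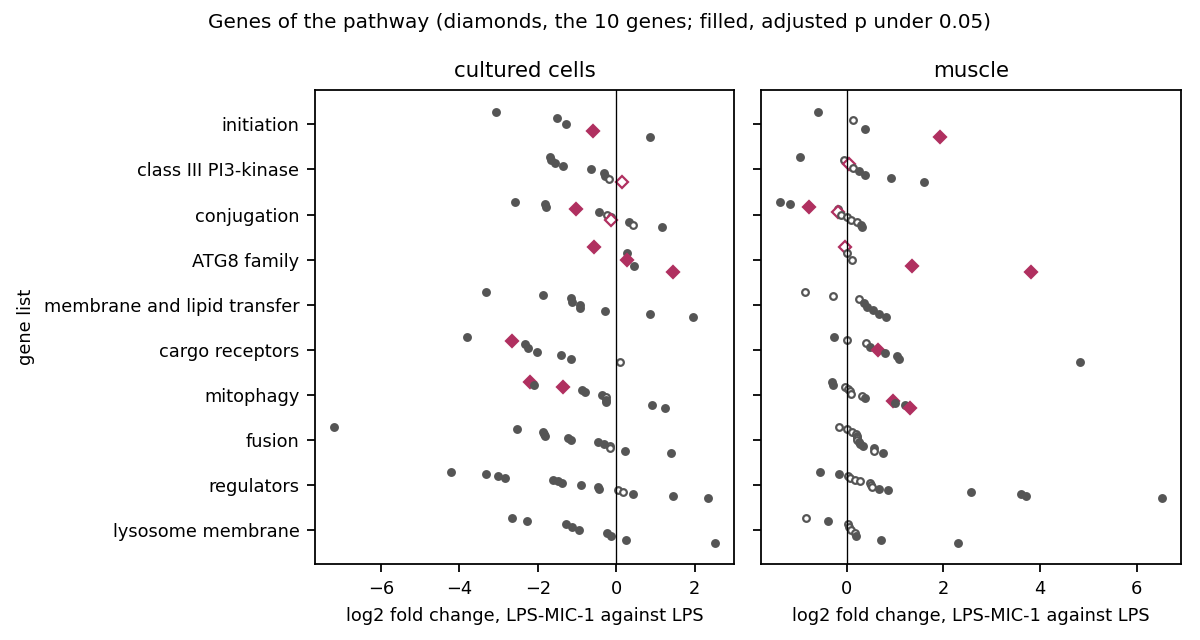
Log2 fold change from LPS to LPS-MIC-1 of every tested gene of the 10 pathway lists, in cultured cells (left) and muscle (right), diamonds for the 10 genes described and circles for the rest, filled where the adjusted p was under 0.05. In cells 16 of 85 other genes rose and 59 fell, beside 41.4% and 43.2% of all genes tested. In muscle 35 of 84 rose and 11 fell, beside 28.3% and 28.2%, the farthest to the right being Ddit4 at 6.52.

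The gene whose log2 FPKM was most like that of a member over the 9 libraries of an experiment was found by Pearson correlation, given here as a description over 9 points that form 3 groups. In muscle these were Junb for Gabarapl1 (r = 0.999), Txnip for Map1lc3b (0.999), Cblb for Bnip3 (0.999), Dbn1 for Bnip3l (0.998), Fbxo31 for Sqstm1 (0.998) and Ide for Ulk1 (0.995). Such values were common: 10.6% of the other genes tested had r over 0.95 with Gabarapl1 in muscle. Atg5 was most like Gypc (0.956), Map1lc3a Slc16a3 (0.949), Atg7 Btbd19 (0.912) and Becn1 Frs2 (0.834). In cells the nearest were Basp1 for Sqstm1, Rgs10 for Bnip3 and Arl8b for Bnip3l (each 0.999), Acot9 for Map1lc3a and Npc2 for Gabarapl1 (each 0.998), Ints12 for Atg7 (0.997), Tmbim6 for Map1lc3b (0.994), Eif3k for Becn1 (0.971), Tmcc3 for Ulk1 (0.95) and Pex19 for Atg5 (0.925).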

How the data were processed

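RNA-seq of 18 mouse libraries was analysed. Transcript abundances came from kallisto pseudoalignment, brought to gene level by the authors with tximport, and FPKM was the unit deposited. The submitters' processing notes name mm9 and DESeq2. FPKM is not a count, so no count test was run. Total reads per library are not given in the sources used here. Depth was judged from the base means, a normalized count signal averaged over libraries, in 5 tables of comparisons that the authors deposited. For the 10 genes these means ran from 499 (Map1lc3a) to 58840 (Sqstm1) in cells and from 113 (Atg5) to 12368 (Sqstm1) in muscle. The fold changes and p-values in those tables were not used, nor was a sixth table on another scale, nor 11 muscle columns without a name, 9 of them holding values.

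Each experiment was fitted apart with limma 3.58.1 in R 4.3.3 on log2(FPKM + 0.1), with group means over 9 libraries and eBayes with a trend, for genes with a mean FPKM over 1. The Benjamini-Hochberg adjustment covered every tested gene of a comparison. Shares of the ATG8 family were compared by an exact 2-sided permutation test. Scripts were tested on simulated data. No libraries held identical values, and Pearson's r between replicates was 0.936 to 0.989. Deviations of same-numbered libraries were weakly correlated at most (-0.0757 to 0.0823), so no block was used. In muscle, each LPS library nevertheless correlated best with the LPS-MIC-1 library of its own number (0.0823, 0.0626 and 0.0282).

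The 10 genes and all lists were chosen with earlier results of these data known. Named were the 10 genes, the 2 other genes of each pathway list with the largest changes in a comparison, the gene most correlated with each of the 10, and the most abundant markers. A pathway gene that the rule names is not reported here. Older symbols were matched. Alternatives were the pseudocount, the filter, quantile and median-ratio normalization, eBayes without a trend, library weights, fits of 6 libraries, the replicate block and leaving out each library. The FPKM values already carried equal median-ratio factors, so that scaling changed little. Running the alternatives on the named pathway genes was decided after seeing the data. The labels give MIC-1 at 10 μM in cells. The methods of the study give a range of doses that includes this one, and its results name a lower dose for the sequenced myoblasts.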

Additional observations from a re-analysis of the deposited data

Results flagged for a closer look

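For 6 genes the 2 groups of a comparison did not overlap and differed in opposite directions in cells and in muscle (log2 fold changes, limma). Non-overlap in either direction was common over all genes. It held for 79.4% in cells and 36.5% in muscle with LPS, and for 85.5% and 64.2% from LPS to LPS-MIC-1. From control to LPS-MIC-1 it held for 83% and 64.6%. The share of all genes with opposite directions was not computed. The difference between the experiments was not tested, and the cell groups also differ in macrophage and myogenic markers. From LPS to LPS-MIC-1, Sqstm1 was -2.67 in cells and 0.64 in muscle, Gabarapl1 -0.56 and 3.82, Bnip3 -2.20 and 1.30, Bnip3l -1.35 and 0.96, and Ulk1 -0.59 and 1.93. From control to LPS-MIC-1, Bnip3 was -2.78 in cells and 1.28 in muscle, and Bnip3l -1.01 and 0.91. From control to LPS, Sqstm1 was 4.12 and -0.04, and Map1lc3b 0.46 and -0.20. Of these, the muscle difference of Sqstm1 with LPS did not pass its own test (adjusted p = 0.49), and that of Map1lc3b passed at 0.0291.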

How the results depend on the processing

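No difference that passed its test changed direction under the alternatives run. Differences near 0 that had not passed changed sign under at least 1 of them, for Becn1 and Bnip3 in muscle and for Becn1, Ulk1 and Atg5 in cells. Of 1134 refitted log2 fold changes of the 10 genes, 24 lost and 5 gained significance, and of 1241 of the named pathway genes 45 lost it. In muscle, the 2 of 10 genes that changed with LPS became 1 without the variance trend and 0 to 2 when 1 library was left out (0 without control replicate 1), and the 14 pathway genes became 7 to 12. In the main fit, 54 of 84 pathway genes changed from control to LPS-MIC-1 in muscle (45 higher, 9 lower), where 30% and 28.5% of all genes rose and fell. With a mean FPKM over 5 the count became 35 of 55 tested (29 higher, 6 lower), and Atg5 and Atg7 were not tested. The shares of all genes with this filter, with a replicate block and without single libraries were not computed. With a replicate block, although the numbers share no origin in the labels, pathway genes that changed numbered 61, 74 and 70 in cells and 12, 42 and 53 in muscle (LPS against control, LPS-MIC-1 against LPS, LPS-MIC-1 against control). Without the block they numbered 61, 75 and 70, and 14, 46 and 54. The fall of Atg7 from control to LPS-MIC-1 in muscle had an adjusted p of 0.0678 with the block.

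Quantile normalization moved the median of all muscle genes by -0.12 from LPS to LPS-MIC-1 and by -0.11 from control, and the pathway genes that rose and fell from LPS went from 35 and 11 to 26 and 14. Without LPS-MIC-1 replicate 1 of the cells, 9 of 10 genes differed from control and 3 were called, with Ulk1 and Becn1 higher (0.32 and 0.21, adjusted p = 0.0318 and 0.0302). In the main fit 7 differed and 4 were called, where 39.5% of all genes rose, 41.8% fell and 43.3% were called. In muscle, LPS-MIC-1 against control, Atg5 passed without control replicate 3 (-0.61, adjusted p = 0.0179). Atg5 and Atg7 rest on the lowest depth of the 10 genes in muscle.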
